A study of Arabidopsis thaliana with 24 samples.

Results

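The genes described here stood far above the other genotypes in seedlings of the Arabidopsis e2fa e2fb e2fc triple mutant, called e2f below. They were chosen from the raw counts by 3 conditions on CPM, the reads of a gene scaled to the total of its library. The mean of e2f had to be 2 CPM or more, at least 8 times each of the means of bte1btl1, btl1 and WT, and every e2f library had to exceed every library of those genotypes. Of 33612 features 92 met these conditions. Because e2f, bte1btl1, btl1 and WT chose the members, their levels in these 4 genotypes are a description and are not tested.

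Whole seedlings at 9 days of age, kept under continuous white light, gave poly(A) RNA for 24 libraries. There were 8 genotypes and 3 biological replicates of each. The genotypes were the e2fa e2fb e2fc triple mutant, the bte1 btl1 double mutant, the btl1 mutant, the bte1 hid1 double mutant, the hid1 phil1 double mutant, the hid1 mutant, the bte1 mutant and the Col-0 ecotype (WT). The doubles are written bte1btl1, bte1hid1 and hid1phil1 below. The labels give neither the nature of each allele nor the number of plants pooled in a sample. Counted reads per library ranged from 14309396 to 23912716. The e2f libraries held 21270487 to 21885875 reads and those of WT 22544462 to 23912716, while btl1 and bte1btl1 lay between 14309396 and 15424866. E2FA was at 31.9 ± 5.17 CPM in e2f, against 10.1 ± 0.789 in btl1 and 8.76 ± 0.151 in WT (SD, n = 3 each). E2FC was at 48.5 ± 5.10 CPM in e2f, against 10.3 ± 0.700 in btl1 and 11.5 ± 0.938 in WT. E2FB was at 5.66 ± 0.832 CPM in e2f, against 6.94 ± 0.658 in btl1 and 6.80 ± 0.893 in WT. Gene-level counts therefore gave no check of that genotype.

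E2F proteins pair with DP proteins and bind promoters of genes for DNA replication and the cell cycle. In Arabidopsis E2FA and E2FB are known mostly as activators and E2FC mostly as a repressor, and the retinoblastoma-related protein RBR1 restrains them. E2F and RBR1 also take part in the DREAM complex, which holds cell-cycle genes silent in cells that do not divide. HID1 is a noncoding RNA gene of light responses.

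Of the 89 protein-coding members 5 carried a canonical E2F motif close to their annotated start, and these 5 stretches are shown so that the place of the motif can be read in each. The window ran from 250 bases before to 50 bases after the gene start in RefSeq's TAIR10.1, and the letters searched on both strands were TTTGGCGC, TTTCCCGC, TTTGCCGC and TTTCGCGC. The 250 bases before the start are printed in the direction of the gene, with the motif in capitals; in SMR7 it lies on the opposite strand and reads GCGCCAAA here. None of the 5 stretches overlaps another annotated gene.
AT1G20750, chr1:7209014-7209263, minus strand: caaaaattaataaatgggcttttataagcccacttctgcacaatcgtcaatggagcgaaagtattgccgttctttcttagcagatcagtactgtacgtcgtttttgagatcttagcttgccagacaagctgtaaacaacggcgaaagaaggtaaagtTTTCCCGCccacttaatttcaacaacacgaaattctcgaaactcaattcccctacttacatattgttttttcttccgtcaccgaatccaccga
SMR7 (AT3G27630), chr3:10231568-10231817, minus strand: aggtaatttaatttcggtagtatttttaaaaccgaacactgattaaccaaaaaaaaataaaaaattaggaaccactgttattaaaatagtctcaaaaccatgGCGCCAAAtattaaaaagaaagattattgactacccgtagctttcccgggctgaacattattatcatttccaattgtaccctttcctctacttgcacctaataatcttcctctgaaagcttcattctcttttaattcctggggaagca
AT4G14805, chr4:8503200-8503449, minus strand: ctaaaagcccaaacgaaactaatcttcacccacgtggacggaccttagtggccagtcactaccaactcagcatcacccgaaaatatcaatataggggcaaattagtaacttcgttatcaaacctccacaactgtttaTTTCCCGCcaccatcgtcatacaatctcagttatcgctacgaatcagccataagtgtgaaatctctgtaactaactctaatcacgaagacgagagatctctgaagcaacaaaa
AT4G33870, chr4:16236493-16236742, minus strand: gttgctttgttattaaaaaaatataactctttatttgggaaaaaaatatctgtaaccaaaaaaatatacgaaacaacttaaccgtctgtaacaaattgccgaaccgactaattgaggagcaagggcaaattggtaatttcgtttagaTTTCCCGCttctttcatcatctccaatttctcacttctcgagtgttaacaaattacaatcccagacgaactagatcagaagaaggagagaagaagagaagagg
AT5G01120, chr5:44560-44809, plus strand: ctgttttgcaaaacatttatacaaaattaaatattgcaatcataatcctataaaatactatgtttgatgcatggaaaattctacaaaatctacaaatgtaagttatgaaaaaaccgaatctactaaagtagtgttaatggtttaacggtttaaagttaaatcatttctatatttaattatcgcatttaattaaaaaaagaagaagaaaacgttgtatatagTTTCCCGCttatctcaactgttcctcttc

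The motif lay 93 bases before the start in AT1G20750, a RAD3-like DNA helicase gene, and 148 bases before it in SMR7, a cyclin-dependent kinase inhibitor gene of the SIAMESE-related family. It lay 113 bases before the start of AT4G14805, 103 bases before that of the peroxidase gene AT4G33870 and 29 bases before that of AT5G01120, which encodes a DUF674 protein. The share of members with the motif was 5.62% (exact Clopper-Pearson 95% interval 1.85% to 12.6%, counting error only). Of all 27444 coding promoters in the annotation 1.76% held it, and 1.96% of the 17773 whose genes had 2 CPM or more in e2f. A shorter form lacking the first T was found in 8 member promoters (8.99%) and in 3.63% of all coding promoters. The CHR letters TTTGAA or TTCGAA, an element known from DREAM targets in animals, stood in 39 of 89 member promoters (43.8%), against 48.7% of all. The mitotic MSA core AACGG stood in 26 (29.2%), against 24.7% of all.

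In e2f the members ran from 2.02 to 998 CPM with a median of 10.5. There were 10 members at 100 CPM or more, 36 between 10 and 100 and 46 below 10. In WT 65 of the 92 averaged under 1 CPM, and 5 had no read in any WT library (AT1G20750, LTP4, AT5G64540, AT1G30170 and DRP4C). Together the members made up 3369 to 5505 CPM of each e2f library, against 189 to 203 in bte1btl1, 175 to 222 in btl1 and 209 to 355 in WT. The ratio of the e2f mean to the highest of the bte1btl1, btl1 and WT means had a median of 11.5, and 27 members were at 20 or above. The heat map by role gives every library, and the contrast it shows between e2f, bte1btl1, btl1 and WT is what the rule required. In bulk RNA of whole seedlings, more cells that hold a transcript and more transcript in each cell cannot be told apart.

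**Figure D1:**
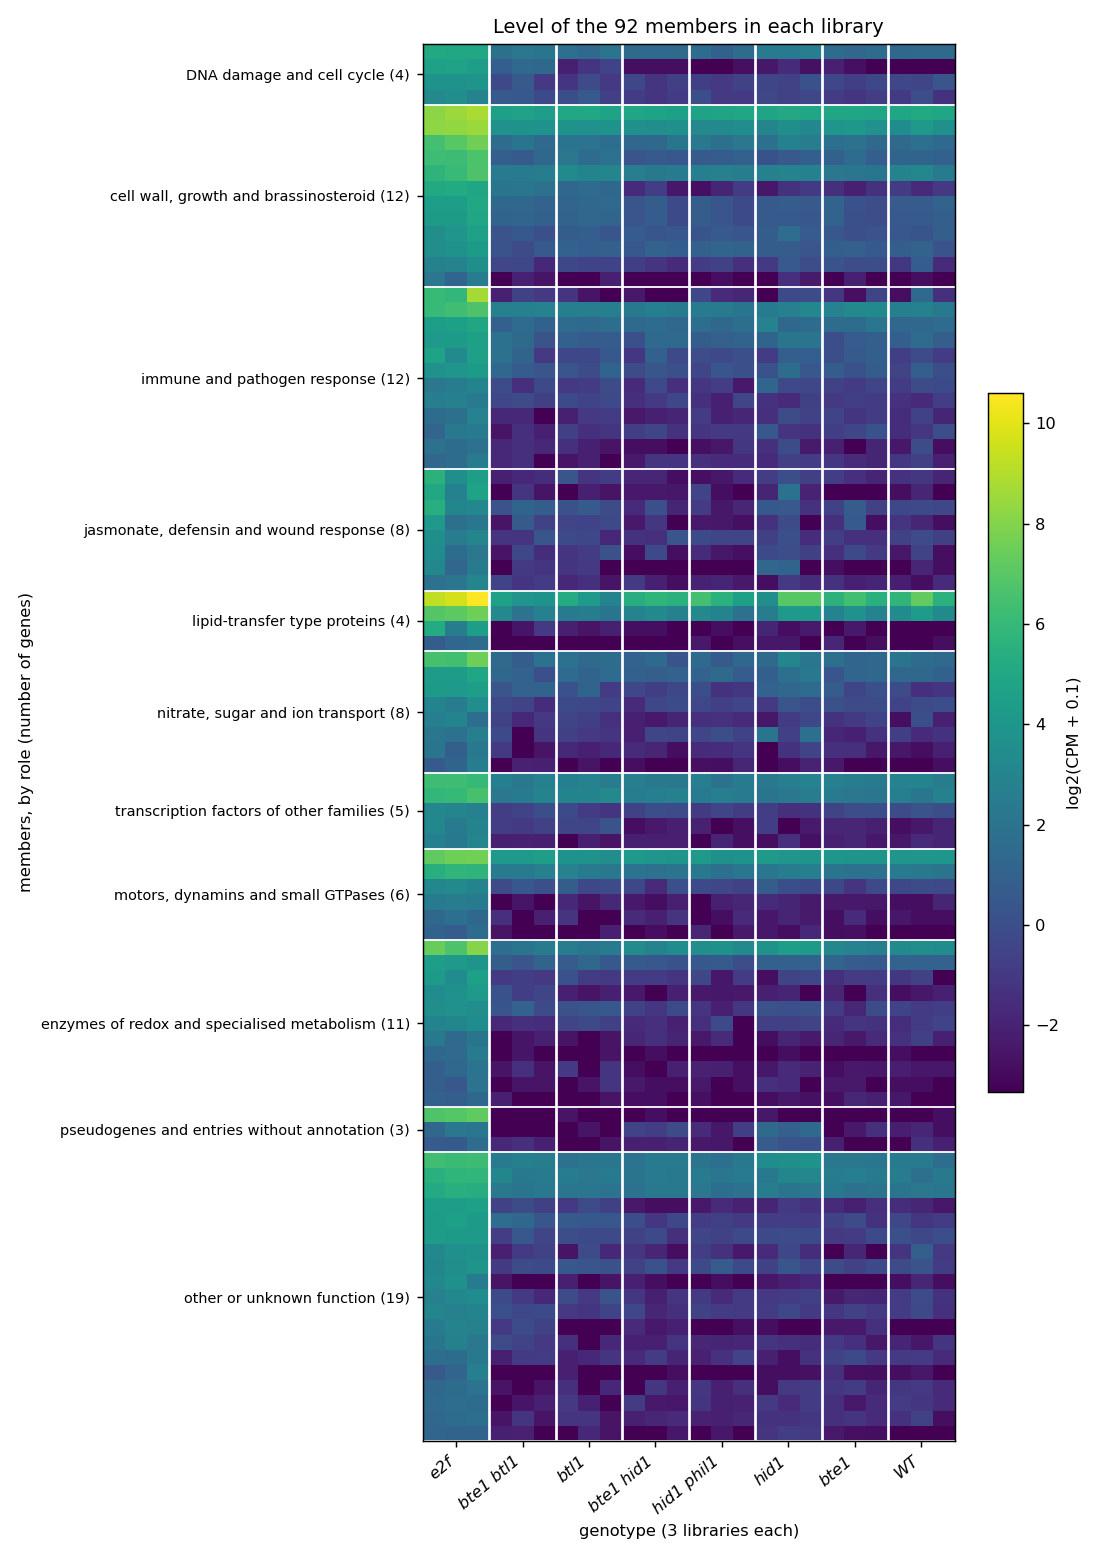
Rows are the 92 members, grouped by role and ordered by e2f mean within each role; columns are the 24 libraries, 3 per genotype; colour is log2(CPM + 0.1). The e2f columns at the left are the brightest in nearly every row, and a few rows, such as NRT2:1 in the transport block and TPS04 in the jasmonate block, are also light in hid1 libraries.

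Near the limit of the rule the members differ little from genes it left out. XIA, a myosin XI gene, stood at 8.05 times its highest other group, BSK9 at 8.06 times and RPA1E at 8.07 times. Just outside lay RNS1, a ribonuclease gene, at 7.93 times, AT1G63530 at 7.84 times and AT4G10950 at 7.82 times. The far end was spread widely, from AT5G32197.1 over PR1 at 188 times to NATA1 at 158 times, as the plot of e2f level against the highest other group shows.

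**Figure D2:**
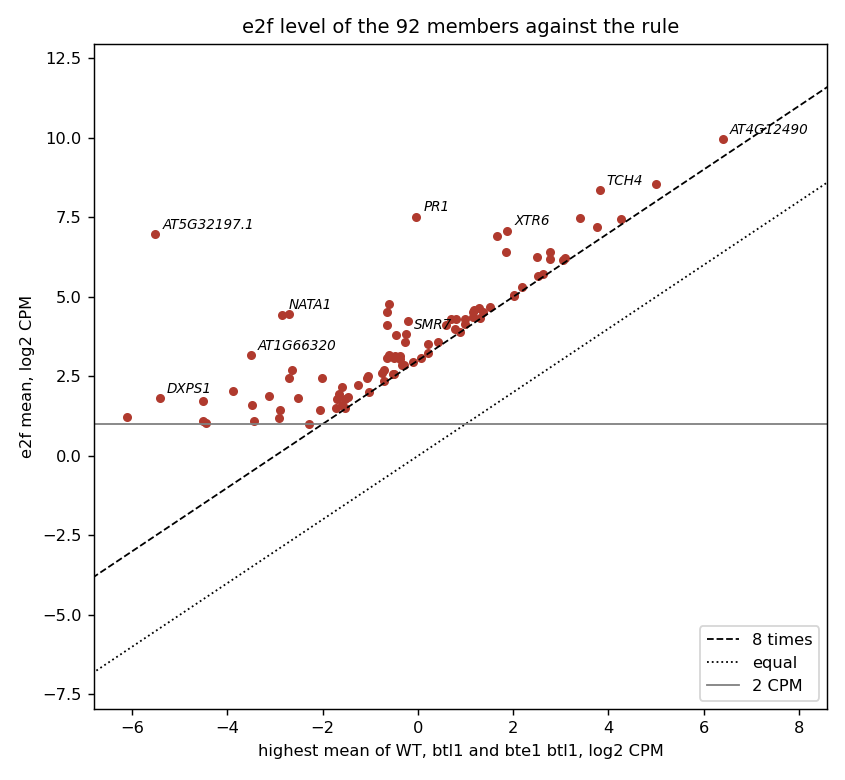
Each point is 1 of the 92 members; the x axis is the highest of the WT, btl1 and bte1btl1 means in log2 CPM (drawn at no less than 0.01 CPM) and the y axis the e2f mean in log2 CPM. The dashed line marks 8 times, the dotted line equality and the grey line 2 CPM, so no member can lie under them; many sit close to the 8-fold line, and AT5G32197.1 and PR1 lie farthest from it.

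Against the 4 genotypes that the rule did not use, most members were low too. For 74 of the 92 the e2f mean was also at least 8 times each of the 7 other genotype means, and in 88 all e2f libraries exceeded every library of bte1hid1, hid1phil1, hid1 and bte1, where 20.8% of all 21897 genes that passed the low-count filter did so. The e2f libraries chose the members, so nothing is read from that difference. The exceptions were TPS04, NRT2:1, AT5G28335.1 and AT4G05370, each of which overlapped with hid1. For these 4 genes the data go against a description as raised in e2f alone. Among these 4 other genotypes hid1 had the highest mean for 63 members, and for 30.1% of all genes that passed the filter.

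By annotated function the members fell into 11 role groups, which were assigned after the values had been seen and are used only to order the description. Of the 4 members of DNA damage response and the cell cycle, RPA1E encodes a large subunit of replication protein A, which coats single-stranded DNA in repair. It had 35.1, 31.1 and 31.7 CPM in the e2f libraries, against 3.44, 4.54 and 4.15 in bte1btl1, 3.28, 2.63 and 4.04 in btl1 and 2.55, 2.66 and 2.70 in WT. SMR7, which SOG1 is known to switch on after DNA damage, had 14.3, 13.7 and 14.8 CPM in e2f, against 0.757, 1.40 and 0.389 in bte1btl1, 0.328, 0.854 and 0.398 in btl1 and 0.669, 0.665 and 1.17 in WT. The 3 e2f libraries lay within 1.5-fold of each other for both genes, and no other library came near them.

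The helicase gene AT1G20750 had 24.6, 25.9 and 21.9 CPM in e2f, against 1.72, 2.66 and 2.46 in bte1btl1, 0.131, 0.328 and 0.596 in btl1 and no read in the WT libraries. Its levels were thus stepped, with every bte1btl1 library above every btl1 library. AT5G62240, annotated as a cell-cycle regulated microtubule associated protein, had 9.31, 11.6 and 7.26 CPM in e2f and at most 1.38 in any library of bte1btl1, btl1 or WT. The sum of these 4 genes was 75.7 to 83.3 CPM in the e2f libraries and 2.68 to 9.92 CPM in all others.

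**Figure D3:**
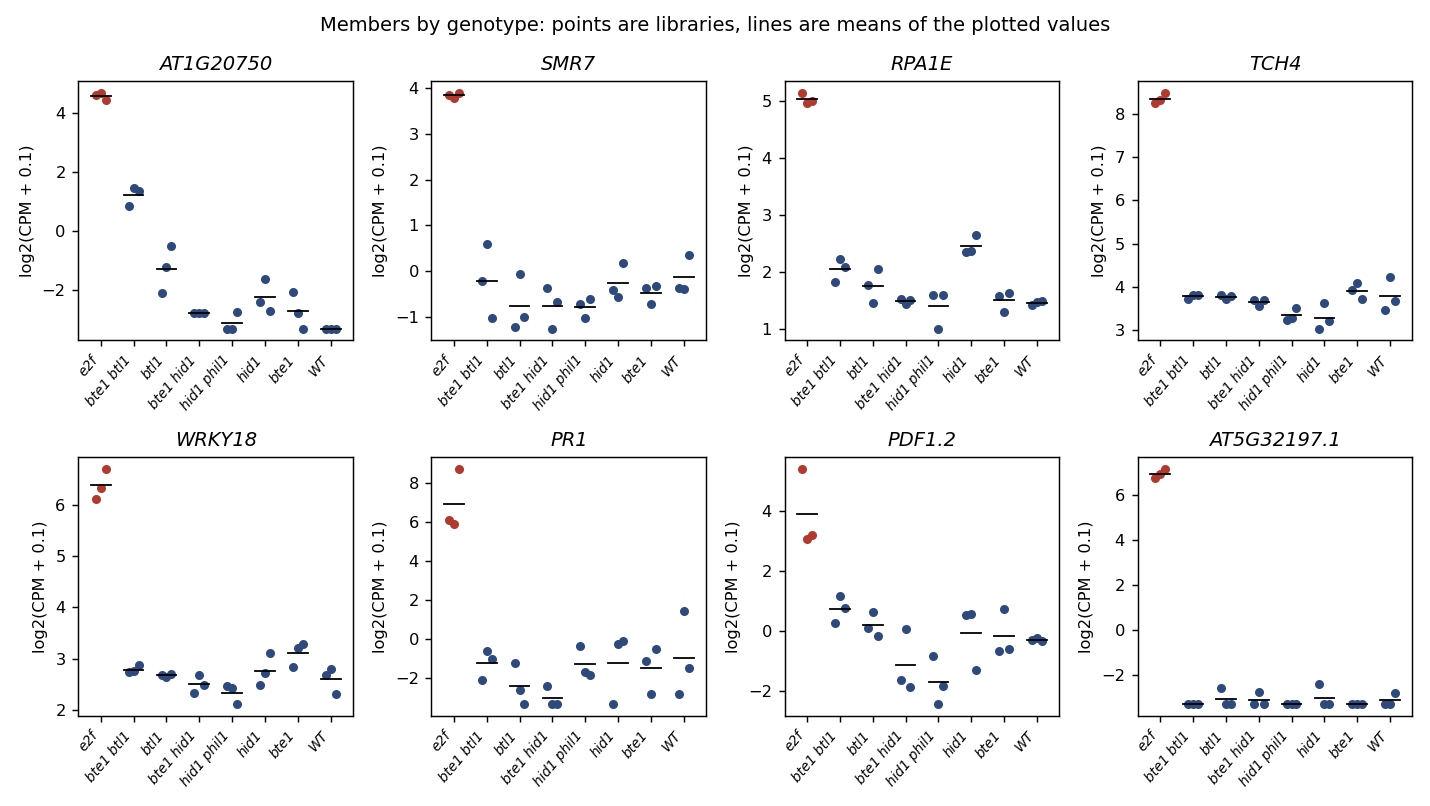
Each panel is 1 member, with log2(CPM + 0.1) on the y axis and the 8 genotypes on the x axis; red points are e2f libraries, blue points the others, and the line is the mean of the plotted values. The e2f libraries lie close together for AT1G20750, SMR7, RPA1E and TCH4, while 1 e2f library stands above the others for PR1 (replicate 3) and PDF1.2 (replicate 1).

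A group of 12 genes of the cell wall, growth and brassinosteroid signalling contributed 923 to 1369 CPM to each e2f library and 52.8 to 75.8 CPM to every library of the other genotypes. EXO, whose product promotes cell expansion, had 292, 368 and 457 CPM in e2f, against 23.3, 26.3 and 22.4 in bte1btl1, 31.3, 30.8 and 27.0 in btl1 and 29.8, 35.2 and 30.7 in WT. TCH4, a touch-induced xyloglucan endotransglucosylase that remodels the wall, had 305, 323 and 359 CPM in e2f, against 13.1 to 14 in bte1btl1, 13.1 to 13.9 in btl1 and 11 to 18.6 in WT. Its mean was 23.3 times that of WT, with e2f at 329 ± 28 CPM and WT at 14.1 ± 4.02 (SD, n = 3 each).

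XTR6, another enzyme of that family, had 86.0, 128 and 192 CPM in e2f, against at most 4.19 in any bte1btl1, btl1 or WT library. Xyloglucan enzymes were joined by XTH33 at 11.6, 15.4 and 25.4 CPM in e2f, and by the expansin-like gene EXLA1 at 53.4, 66.7 and 105 CPM. PHI-1, a relative of EXO, was at 84.9 ± 15.1 CPM in e2f, against 1.88 ± 0.518 in bte1btl1, 3.62 ± 0.822 in btl1 and 2.07 ± 0.140 in WT. For 11 of the 12 genes of this group replicate 3 was the highest e2f library.

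BSU1, a phosphatase of brassinosteroid signalling, was the exception, with 34.7, 35.8 and 29.5 CPM in e2f, against 4.13, 4.33 and 3.76 in bte1btl1, 2.50, 2.82 and 2.39 in btl1 and 0.460, 0.222 and 0.392 in WT. The other 4 genotypes held it at 0.227 to 0.272 CPM on average. So BSU1 was 93.2 times WT in e2f but 8.18 times bte1btl1. The kinase gene BSK9 of the same pathway had 11.8, 13.9 and 18.8 CPM in e2f and at most 2.08 in bte1btl1, btl1 or WT. ORS1, a gene of organ size control, and AT2G41231 lie on opposite strands and share 406 bases in TAIR10.1. With the strand setting of the counting not given, their nearly equal values (25.3 and 22.8 CPM in e2f) cannot be told apart. CSLG2, a cellulose synthase-like gene, had 4.56, 2.20 and 5.57 CPM in e2f and 3 reads in all of bte1btl1, a ratio of 60.6 with a 95% counting interval of 20.5 to 296.

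Genes of immunity and pathogen response, 12 in number, summed to 234 to 655 CPM in e2f and to 11 to 22.6 CPM in every other library. Most of that range came from PR1, the marker of salicylic acid defence, with 67.7, 59.8 and 421 CPM in e2f, against 0.138 to 0.559 in bte1btl1, at most 0.328 in btl1 and 0.0418, 2.62 and 0.261 in WT. Replicate 3 of e2f was thus 7.05 times the lowest e2f library, the widest spread of any member. WRKY18 and WRKY40, related transcription factors of basal defence, were steadier. WRKY18 had 69.1, 80.4 and 104 CPM in e2f, against 6.54 to 7.20 in bte1btl1, 6.11 to 6.43 in btl1 and 4.87 to 6.88 in WT. WRKY40 had 22.5, 23.6 and 30.3 CPM in e2f, against at most 3.11 in those 3 genotypes.

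BGL2, also known as PR2, a secreted glucanase of the same response, had 26.8, 9.51 and 22.9 CPM in e2f and AED1, an aspartyl protease induced in systemic resistance, 18.1, 18.8 and 23.8. In bte1btl1 BGL2 reached 3.51 CPM and AED1 3.58. The receptor-like kinase genes CRK6 and CRK7 are direct neighbours in the genome, and such close relatives can share reads. CRK6 was at 15.9 ± 2.89 CPM in e2f, against 1.73 CPM on average in bte1btl1, and CRK7 at 4.49 ± 2.26, against 0.334 in WT, its highest other group. MYB15, CRK4, MPK11, ELI3-2 and the resistance gene RMG1 made up the rest, at means of 3.43 to 5.97 CPM in e2f.

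Of 8 genes of jasmonate, defensin and wound response, 7 had replicate 1 as the highest e2f library, and none had its 3 e2f libraries within 1.5-fold. Their sum was 175, 46.0 and 88.4 CPM in e2f replicates 1, 2 and 3, and at most 11.2 CPM in any other library. BAM5, a beta-amylase, had 48.4, 12.3 and 22.3 CPM in e2f, against at most 1.18 in bte1btl1, btl1 or WT. NATA1, an acetyltransferase of the jasmonate response, had 31.5, 6.72 and 27.1 CPM in e2f and at most 0.349 in those genotypes.

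PDF1.2, the usual defensin marker of jasmonate and ethylene, had 42.4, 8.28 and 9.05 CPM in e2f, against 1.1, 2.17 and 1.62 in bte1btl1, 0.985, 1.44 and 0.795 in btl1 and 0.696 to 0.754 in WT. PDF1.2c lies next to it and PDF1.2b is another close copy, so that their counts (8.47 and 6.09 CPM in e2f) are uncertain. All 3 had the same order of libraries in e2f. JRG21, an oxygenase of jasmonate turnover, had 11.8, 5.67 and 7.86 CPM in e2f. TPS04, which makes a volatile after herbivory, had 8.84, 2.33 and 5.30.

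The highest member of all was AT4G12490, 1 of 4 genes for proteins of the lipid-transfer type, with 619, 822 and 1555 CPM in e2f, against 25.1, 15.4 and 13.5 in bte1btl1, 37.5, 17.8 and 7.42 in btl1 and 55.2, 152 and 46.8 in WT. The WT libraries were themselves spread widely, and e2f stood at 11.8 times its mean but at 47.7 times that of btl1. Per length it also led, at 1070 FPKM (the authors' length-scaled fragment values) in e2f, before TCH4 at 274 FPKM, EXO at 270 and PR1 at 201. AT4G22470 had 117, 135 and 185 CPM in e2f and at most 19.9 in bte1btl1, btl1 or WT. LTP4 had 37.9, 5.58 and 22.2 CPM in e2f, against at most 0.389 in bte1btl1, at most 0.133 in btl1 and no read in WT. AT4G14805, which carries an E2F motif, had 1.65, 2.42 and 2.92 CPM in e2f, no read in bte1btl1 or btl1 and 1 in WT.

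Transport genes numbered 8. NRT1.8, which takes nitrate back out of the xylem, had 93.1, 83.1 and 185 CPM in e2f, against at most 3.97 in any bte1btl1, btl1 or WT library. GPT2, a plastid glucose 6-phosphate translocator, had 19.4, 18.1 and 21.1 CPM in e2f, against 1.17, 1.96 and 2.07 in bte1btl1, 1.05, 2.1 and 0.464 in btl1 and 0.836, 0.266 and 0.348 in WT. NRT2:1, a high-affinity nitrate transporter of the root, had 4.28, 3.70 and 6.21 CPM in e2f and at most 0.757 in those genotypes.

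Regulators outside the WRKY and MYB families numbered 5. DREB26, an AP2-type factor, had 77.7, 77.3 and 63.1 CPM in e2f, against 4.61 to 6.61 in bte1btl1, 5.90 to 7.03 in btl1 and 5.92 to 7.59 in WT. HRA1, a trihelix factor that restrains the hypoxia response, had 59.4, 65.3 and 91.9 CPM in e2f and at most 9.28 in those 3 genotypes. ZAT7, AT1G33760 and AT1G77640 were at 6.44 to 7.73 CPM on average in e2f.

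Motor, dynamin and small GTPase genes made a group of 6, and 5 of them lay within 1.5-fold over the e2f libraries. AT5G05180, annotated as a myosin heavy chain-like protein, had 147, 182 and 198 CPM in e2f, against 17.7 to 21.1 in bte1btl1, 11.4 to 14.3 in btl1 and 15.1 to 16 in WT. The kinesin gene Kin-1 had 42.3, 55.8 and 53.1 CPM in e2f and at most 7.22 in those genotypes. The dynamin-related gene DRP4C had 1.93, 1.55 and 2.88 CPM in e2f and 2 reads in all of btl1, a ratio of 48.3 with a counting interval of 13.1 to 403.

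Of 11 enzyme genes of redox and specialised metabolism, NIT2, a nitrilase, led with 168, 105 and 268 CPM in e2f, against 3.16 to 5.38 in bte1btl1, 4.40 to 5.58 in btl1 and 9.49 to 11.3 in WT. The peroxidase gene AT4G33870 had 10.8, 13.6 and 17.9 CPM in e2f, against 1.03, 0.489 and 0.648 in bte1btl1, 0.0657 to 0.133 in btl1 and 0.0418 to 0.131 in WT. Like AT1G20750 it carries an E2F motif and was higher in every bte1btl1 library than in every btl1 library. That order held in 11 of the 92 members and in 9.64% of all genes that passed the low-count filter. The rule capped both genotypes, and nothing is read from it. The other members with the motif, SMR7, AT4G14805 and AT5G01120, did not show that order. DXPS1 and CCD7 (an enzyme of strigolactone synthesis) were at 3.51 ± 1.67 and 2.03 ± 0.353 CPM in e2f. Each had 1 or 2 reads in bte1btl1, with ratios of 156 (counting interval 27.7 to 6185) for DXPS1 and 44.9 (12.2 to 375) for CCD7.

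The member with the highest ratio was AT5G32197.1, at a locus that TAIR10.1 annotates as a pseudogene and that overlaps a miRNA gene on the same strand. It had 108, 122 and 146 CPM in e2f, no read in bte1btl1, 1 read in all of btl1 and 1 in all of WT. Against the floor of 3 reads over the bte1btl1 libraries e2f was at least 1853-fold higher, and against the single btl1 read the ratio was 5726 with a counting interval of 1027 to 226205. Of the 2 other members without a coding annotation, AT5G28335.1 had 2.30, 4.48 and 4.39 CPM in e2f and AT4G05370 had 1.5, 1.46 and 3.11.

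A further 19 members had other or unknown functions. AT2G18193, a P-loop nucleoside triphosphatase gene, had 79.7, 73.2 and 74.9 CPM in e2f, against 5.23 to 6.29 in bte1btl1, 3.55 to 4.40 in btl1 and 3.13 to 5.32 in WT. CML38, a calmodulin-like protein induced by low oxygen, had 20.12, 18.8 and 17.7 CPM in e2f and at most 1.26 in those genotypes. The F-box gene AT1G66320 had 8.79, 12.7 and 5.48 CPM in e2f and at most 0.177 in those genotypes. AT5G01120 had 20.07, 22.7 and 19.1 CPM in e2f, against 3.03, 2.45 and 1.23 in bte1btl1, 1.26 to 1.44 in btl1 and 0.355 to 0.669 in WT.

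The spread among the 3 e2f libraries is a description, since these libraries chose the members. The highest e2f library was a median of 1.63 times the lowest for the members, against 1.25 times for all 18269 genes at 2 CPM or more in e2f. Replicate 3 was the highest e2f library for 55 members (59.8%), against 35.6% of all such genes, replicate 1 for 20 and replicate 2 for 17. The members were lower in level than many of those genes, with 46 of 92 below 10 CPM in e2f, and nothing is read from either difference. In 37 members the e2f libraries lay within 1.5-fold, and in 10 they spread over more than 3-fold. Those 10 were PR1, LTP4, PDF1.2, PDF1.2c, NATA1, AT3G28510, BAM5, AT2G04070, PDF1.2b and TPS04. The plot of spread by role shows DNA damage and cell cycle at the tight end, with a median of 1.16 times, and jasmonate, defensin and wound response at the wide end, with 3.88 times. Without e2f replicate 3 the rule gave 80 members, of which 77 were among the 92.

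**Figure D4:**
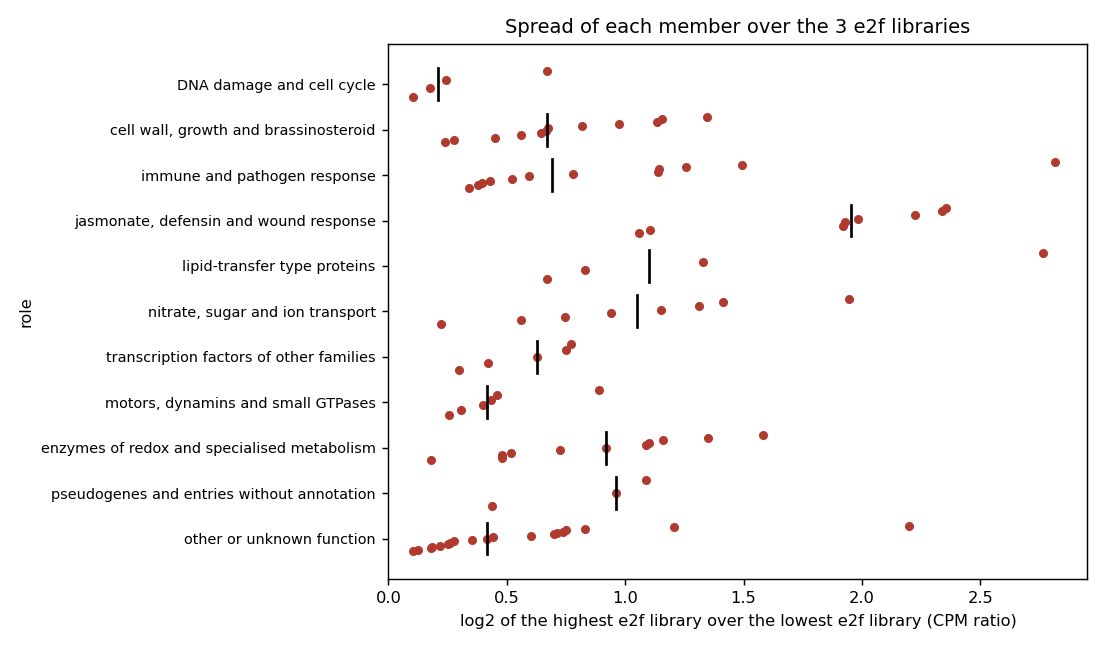
Each point is 1 member; the x axis is log2 of its highest e2f library over its lowest (CPM), and rows are role groups, with the group median as a black line. Most genes of DNA damage, motors and unknown function lie left of 0.5, and the jasmonate group lies at 1 and beyond.

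Levels in the btl1 background varied too. In 11 of the 92 members every bte1btl1 library exceeded every btl1 library, and in 9 the reverse held. Among all 21897 genes that passed the low-count filter, 9.64% were higher and 14.6% lower in this sense, and the rule had capped both genotypes for the members. The 11 were AT1G20750, BSU1, AT4G33870, WRKY18, AT5G05180, AT2G18193, AT4G27980, AT5G64540, AT4G10265, AT3G58480 and AT4G05370.

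Comparisons among the other genotypes used edgeR's quasi-likelihood F test, fitted on all 24 libraries and adjusted by Benjamini-Hochberg over all 21897 genes, with a gene called at an adjusted p under 0.05. All 92 members passed the low-count filter, many only through e2f, and 45 to 55 passed when it saw only the libraries of hid1 and WT, bte1 and WT or bte1hid1 and hid1. In bte1hid1 against hid1 no member was called higher and 11 were called lower, where 4.33% and 3.11% of all genes were. In hid1phil1 against hid1 none was called higher and 9 were called lower, where 3.53% and 2.92% of all genes were. These 2 comparisons share the hid1 libraries, so their counts are not separate evidence. The 11 include AT1G30170, TPS04 and AT2G42340, and the 9 include AT1G30170 and TPS04. These passed the filter only with other genotypes in the fit, so both counts are a description and nothing is read from them. WT was one of the genotypes that the rule held low in the members, so the contrasts with WT are given as a description and nothing is read from their counts. In hid1 against WT 7 members were called higher and 1 lower, where 1.73% of all genes were called higher and 1.72% lower. The difference between the changes with bte1 in hid1 and in WT, which contains WT, was called lower for 3 members and higher for none, where 0.119% and 0.224% of all genes were. In bte1hid1 against hid1, without bte1hid1 replicate 1 the count of 11 became 6, and without bte1hid1 replicate 3 it became 7.

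AT2G18193 had 10.8, 12 and 13.7 CPM in hid1, against 5.27, 5.32 and 3.13 in WT, a log2 difference of 1.39 (SE 0.15). It fell in bte1hid1, to 3.89, 5.29 and 5.03 CPM (log2 change -1.39 against hid1, SE 0.15, edgeR adjusted p = 1.00e-06), and in hid1phil1, to 4.01, 3.28 and 4.92 (-1.55). Every hid1 library lay above every library of bte1hid1, hid1phil1, bte1 and WT. RPA1E followed the same order at a lower level. It had 4.99, 5.01 and 6.11 CPM in hid1, against 2.55, 2.66 and 2.70 in WT (log2 difference 1.01, SE 0.15), 2.60 to 2.76 in bte1hid1 (-1.03 against hid1, SE 0.15, edgeR adjusted p = 8.86e-05) and 1.90 to 2.92 in hid1phil1 (-1.04 against hid1).

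GPT2 had 2.0, 2.55 and 2.80 CPM in hid1, against 0.836, 0.266 and 0.348 in WT, a log2 difference of 2.30 (SE 0.42). It fell to 0.501 to 0.700 CPM in bte1hid1 (-1.98 against hid1, SE 0.40, edgeR adjusted p = 0.00320) and to 0.302 to 0.922 in hid1phil1 (-2.17). AT5G28335.1 had 2.74, 1.80 and 2.64 CPM in hid1, against 0.125, 0.177 and 0.0435 in WT, a log2 difference of 4.29 (SE 0.56). In hid1 the level of this pseudogene reached that of its lowest e2f library. AT4G05370 had 1.48, 1.1 and 0.984 CPM in hid1, against 0, 0.266 and 0.131 in WT (log2 difference 3.12, SE 0.61). Both fell in bte1hid1 (-1.89 for AT5G28335.1 and -2.98 for AT4G05370) and in hid1phil1 (-3.08 and -4.15).

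AT1G30170 had 27 reads over the hid1 libraries and none in WT, at least 9.61-fold higher in hid1 when WT is set to 3 reads in all. It passed the low-count filter only with other genotypes in the fit, as did TPS04 and AT2G42340 against hid1. With 2 reads in each double, AT1G30170 was lower than in hid1 by a factor of 13.9 in bte1hid1 (counting interval 3.49 to 120) and of 13.8 in hid1phil1 (3.46 to 120). Both were called, and the call was lost without bte1hid1 replicate 1 against bte1hid1, and without hid1 replicate 3 or hid1phil1 replicate 1 or 3 against hid1phil1. NRT2:1 was higher in hid1 by 2.91 on the log2 scale (SE 0.63), but its hid1 libraries were at 4.17, 0.527 and 3.26 CPM, against 0.502, 0.222 and 0.305 in WT. That call was lost without hid1 replicate 1, WT replicate 2 or WT replicate 3, and when only hid1 and WT were fitted. AT1G77640 was the member called lower in hid1, at 0.478, 0.264 and 0.311 CPM, against 0.836, 1.06 and 0.914 in WT (log2 difference -1.41, SE 0.34), a call lost without WT replicate 2, hid1 replicate 2 or hid1 replicate 3.

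**Figure D5:**
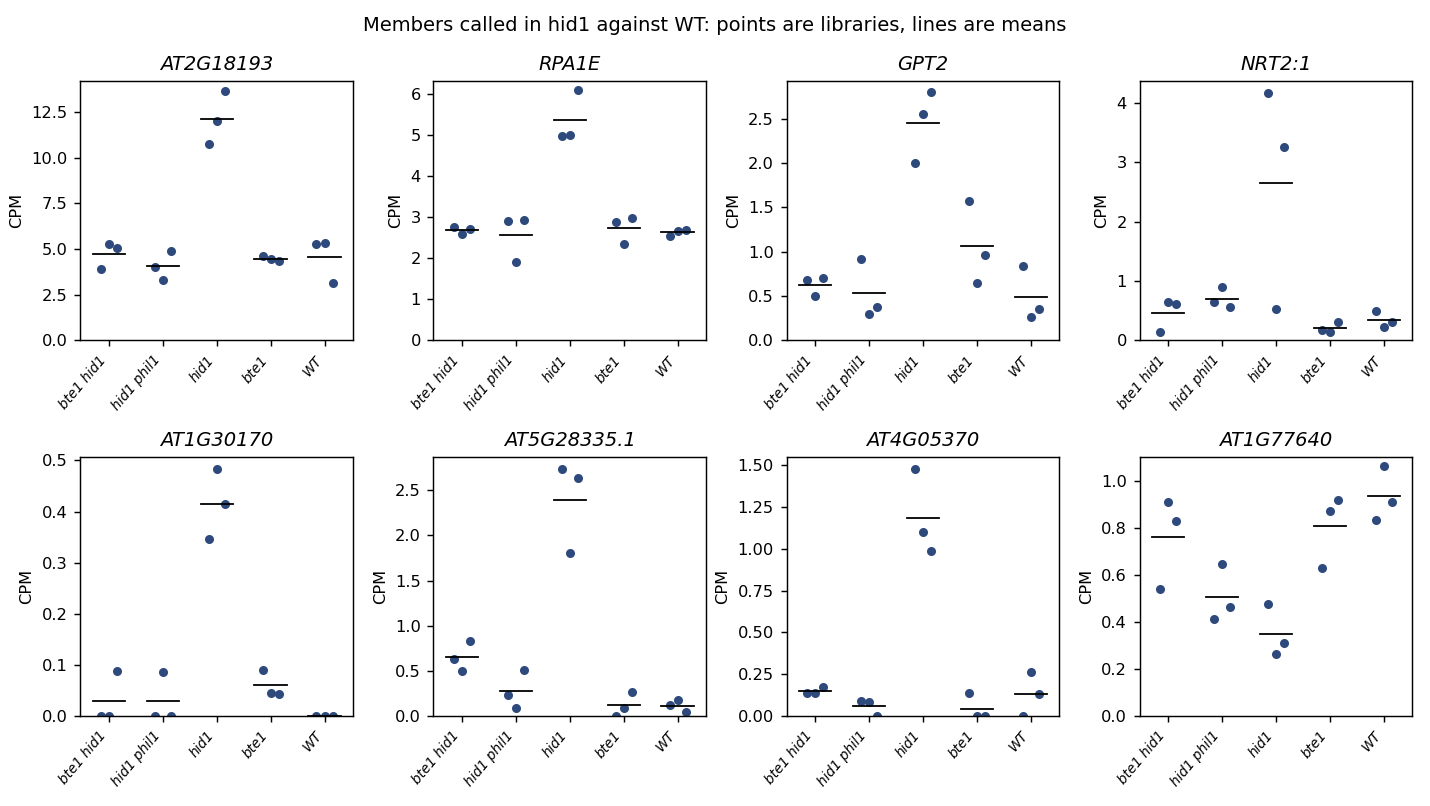
Panels show the 8 members called in hid1 against WT; the y axis is CPM from 0 and the x axis gives bte1hid1, hid1phil1, hid1, bte1 and WT, with points for libraries and lines for means. For 6 genes all hid1 libraries stand above the rest, NRT2:1 has 1 hid1 library at the level of the others, and AT1G77640 has its lowest mean in hid1.

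Each of the other calls against hid1 was lost when certain single libraries were left out. TPS04 had no read in bte1hid1 or hid1phil1 and 103 in hid1, at least 33.4-fold lower in bte1hid1 and 33.2-fold lower in hid1phil1. However, hid1 replicate 3 had no read either, and both calls were lost without hid1 replicate 1 or 2 or any library of the double. NRT2:1 was called lower in bte1hid1 (log2 change -2.53), which was lost without hid1 replicate 1 or 3 or bte1hid1 replicate 1, and when only the 2 genotypes were fitted. NIT2 (-0.95) and Kin-1 (-0.56) were called lower in bte1hid1, and both calls were lost without hid1 replicate 2 or 3 or any bte1hid1 library. The call of Kin-1 was also lost with a replicate block (adjusted p = 0.0552 in edgeR) and when only the 2 genotypes were fitted, and that of NIT2 with no low-count filter. AT2G42340 (-2.21) lost that call without hid1 replicate 2 or 3 or bte1hid1 replicate 2 or 3. In hid1phil1 AT1G48740 was lower (-1.81), a call lost without hid1phil1 replicate 2, and MYB15 was lower (-1.91), a call lost without hid1 replicate 1 or hid1phil1 replicate 1 or 3, and when only the 2 genotypes were fitted.

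In bte1 against WT edgeR called 1 member higher, AT5G64540, and none lower, where 1.89% and 0.63% of all genes were. It had 10 reads over the bte1 libraries and none in WT, which the rule held low, and it passed the low-count filter only with other genotypes in the fit. The call was lost with a replicate block and when any WT library or bte1 replicate 1 or 3 was left out, so nothing is read from it.

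Genes of the same pathways that are not members were tested in e2f from lists of known genes. The lists were chosen with earlier results of these data known, so their counts are a description. In e2f against WT 26.4% of all genes were called higher and 25.8% lower, and in e2f against btl1 26.4% and 24.8%. The 2 comparisons share the e2f libraries. In the deposited FPKM values the e2f and btl1 libraries belong to the same set, and WT to another. In e2f against WT a difference between these sets cannot be told apart from genotype. TSO2 is on both the replication and the DNA damage lists, and CYCB1;1 on both the mitosis and the DNA damage lists. Each is counted in 2 lists. Of 17 tested genes of DNA damage response and repair outside the members, 16 rose against WT and 1 fell, with a median log2 change of 2.21 over the list and -0.01 over all genes tested. Against btl1 15 rose and 1 fell, with medians of 2.19 and -0.01. BRCA1, of recombination repair, was at 102 ± 3.32 CPM in e2f, against 7.31 ± 0.923 in btl1 and 9.46 ± 0.623 in WT (log2 change 3.38 against WT, SE 0.11, edgeR adjusted p = 6.73e-17). BRCA1 met the rule against btl1 and WT but is not a member, so it missed the rule in bte1btl1. GMI1 and RAD54 rose by 2.99 and 2.80 on the log2 scale against WT, and ATM, the kinase that senses double-strand breaks, was the gene that fell, to 35.4 ± 2.88 CPM in e2f, against 46.0 ± 2.28 in btl1 and 55.2 ± 2.64 in WT. RPA1E and SMR7, of the same list, were the 2 that also met the rule. With them the list summed to 994 to 1133 CPM in e2f and 305 to 323 in bte1btl1. It summed to 230 to 272 in btl1 and 206 to 246 in WT, so bte1btl1 also lay above both.

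Of 29 replication genes 26 rose against WT and none fell, with a median log2 change of 1.11, and against btl1 25 rose. TIL2, a paralog of the catalytic subunit of polymerase epsilon, was at 47.1 ± 3.41 CPM in e2f, against 0.176 ± 0.101 in btl1 and 0.0427 ± 0.0418 in WT, and ORC4 and TIL1 rose by 2.41 and 1.96 on the log2 scale against WT. TIL2 likewise met the rule against btl1 and WT but is not a member, so it missed the rule in bte1btl1. Of 23 genes of mitosis and cytokinesis 21 rose against WT and 19 against btl1, with a median of 0.63 against WT, among them CDKB1;1 (2.08), CDKB1;2 (1.55) and the Aurora kinase AUR1 (1.54). Of the 14 E2F and DREAM genes matched by name, out of 21 listed, 8 rose against WT and 10 against btl1, with a median of 0.47 against WT, among them DEL3 (3.26), E2FC (2.04) and RBR1 (1.49). E2FA is not in that count, since TAIR10.1 gives its locus another symbol. Its log2 change was 1.82 against WT (SE 0.12, edgeR adjusted p = 4.89e-12). E2FA, and E2FB and E2FC among the 14, are the genes mutated in e2f. Reads at these loci do not tell whether a working product is made. None of the matched genes of these 3 lists fell in either comparison. The replication list summed to 1368 to 1542 CPM in e2f and 659 to 718 in bte1btl1, against 430 to 512 in btl1. For mitosis the sums were 474 to 568 in e2f, 388 to 394 in bte1btl1 and 290 to 339 in btl1. For E2F and DREAM they were 518 to 535, 303 to 323 and 280 to 292. In all 3 lists every bte1btl1 library lay above every btl1 and WT library, so a rise was not particular to e2f.

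Among 21 meiosis genes 14 rose and 3 fell against WT, and 13 rose and 3 fell against btl1. The list summed to 262 to 294 CPM in e2f and 167 to 179 in bte1btl1. It summed to 121 to 137 in btl1 and 119 to 127 in WT, so bte1btl1 also lay above both. ASY3, MSH5 and MLH3 rose by 3.0, 3.58 and 3.07 on the log2 scale against WT, and SPO11-2 fell to 2.18 ± 1.16 CPM in e2f, against 3.91 ± 0.183 in btl1 and 18.2 ± 1.05 in WT. The call of SPO11-2 against btl1 was lost without btl1 replicate 2, e2f replicate 2 or e2f replicate 3, and when only the 2 genotypes were fitted. PRD2 (-0.33 against WT) lost its call under 8 alternatives against WT and 5 against btl1. SWI1 (-2.24 against WT) had few reads, at 0.0775 ± 0.0715 CPM in e2f and 0.374 ± 0.0184 in WT. Its call was lost without e2f replicate 2. Against btl1 SWI1 was not called, and the genes that fell were SPO11-2, PRD2 and DMC1. DMC1 rose against WT (log2 change 0.64) but fell against btl1 (-0.34). It was at 15.6 ± 2.09 CPM in e2f, against 19.3 ± 0.660 in btl1 and 9.69 ± 1.49 in WT. Of 15 genes of salicylic acid defence outside the members 13 rose against WT and 12 against btl1, none fell, and the median against WT was 1.18. SARD1 rose by 2.67, CBP60g by 1.59 and SAG101 by 1.13 on the log2 scale against WT; PR1 and BGL2 of this list met the rule. Of 13 seed maturation genes 5 rose and 1 fell against WT, but against btl1 2 rose and 1 fell. The gene that fell was OLEO4 in both, and its call against WT (-0.71) was lost under 7 alternatives. The summed list ranged from 11.4 to 87.2 CPM over the e2f libraries and from 6.89 to 64.2 over those of btl1.

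Markers of organs and cell types moved as well, and their part in the members' levels was not tested. Of 14 green leaf genes none rose and 10 fell against WT, and 13 fell against btl1. Their sum was 33419 to 43141 CPM in e2f, against 61594 to 66926 in btl1 and 56730 to 59383 in WT. LHCA1, of the light-harvesting antenna, was at 1161 ± 322 CPM in e2f, against 3033 ± 571 in btl1 and 3371 ± 193 in WT. Of 11 root genes outside the members none rose and 3 fell against WT (GL2, WER and SHR), and 2 rose and 7 fell against btl1; their list summed to 215 to 228 CPM in e2f, 209 to 261 in btl1 and 229 to 277 in WT. Of 9 tested floral organ genes 6 rose and 1 fell against WT, and 4 rose and none fell against btl1. The floral list summed to 68.9 to 77.3 CPM in e2f, 42.6 to 50 in btl1 and 44 to 49.1 in WT, with 5 of its 11 genes at 1 CPM or more in e2f. SEP3 was at 23.4 ± 2.05 CPM in e2f and 8.19 ± 2.35 in WT, while AP1 and AP3 stayed under 1 CPM on average in e2f. Of 4 tested pollen and tapetum genes none rose and 1 fell in both comparisons, and that list summed to 19.9 to 23 CPM in e2f, 20.6 to 22.1 in btl1 and 22.5 to 25.7 in WT. Of 3 tested genes of endosperm and female gametophyte none rose and 1 fell against WT, and none of the 11 listed reached 1 CPM in e2f.

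In the genome the members lay on all 5 chromosomes, with 26, 14, 17, 19 and 15 on chromosomes 1 to 5. AT4G05370 has no entry in TAIR10.1 and is not in these counts. Only 3 pairs were direct neighbours, CRK6 with CRK7, ORS1 with AT2G41231, and PDF1.2 with PDF1.2c. The member closest to E2FA had 95 genes between them, the one closest to E2FC had 116 and the one closest to E2FB had 189. Another annotated gene overlapped 19 members, and in 15 of these the overlapping gene had 2 CPM or more in e2f. AT5G09910, a small GTPase gene, is overlapped by AT5G09900, which was at 129 CPM in e2f, 94.5 in btl1 and 90.6 in WT, so that reads of a pair like this cannot be told apart without strand.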

How the data were processed

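The authors deposited raw counts of reads per gene (33612 features) and FPKM values, both as whole tables over the 24 libraries. Per the labels' protocols, poly(A) RNA was made into TruSeq libraries and run on a HiSeq Xten system. Per the submitters' processing notes, reads were handled with fastp, HISAT2 2.1.0 and SAMtools 1.6 on TAIR10. The counting tool and its strand setting are not given in the sources used here. The deposited FPKM values, scaled by length and library by the authors, served to compare levels between genes within e2f. They also served for an alternative form of the rule against btl1 and bte1btl1 only. They are not comparable between the 15 libraries of WT, hid1, bte1, bte1hid1 and hid1phil1 and the 9 of btl1, bte1btl1 and e2f, since assembled loci enter the first set only. Where counts of e2f are set against a genotype of the first set, a difference between the sets cannot be told apart from genotype. Comparisons of e2f with btl1 or bte1btl1 stay within a set.

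Member levels are CPM by library total. Where a group had no read, 3 reads over the group stood in its place. With 1 to 3 reads the ratio has an exact 95% counting interval, and floors and intervals cover counting error only. Tests used edgeR 4.0.16 (limma 3.58.1, R 4.3.3) with TMM factors of 0.922 to 1.03, filterByExpr by genotype (21897 genes kept, 11715 features removed), a robust quasi-likelihood one-way fit on all 24 libraries and Benjamini-Hochberg adjustment over all genes at 0.05. Alternatives were DESeq2 1.42.0, RLE factors, no filter, only the genotypes compared, a replicate block and leaving out each library. The fit was tested on simulated data. Names, coordinates and sequence came from RefSeq's TAIR10.1, matched by gene identifier, since the deposited tables hold no coordinates. AT4G05370 has no entry there.

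Nothing in the labels tells whether replicates were grown separately, so p-values measure the spread between these samples. No pair of replicates was as close as sampling noise. The members and the gene lists were chosen with earlier results of these data known. Members were named by level, ratio, symbol, calls outside the rule and adjacency. AT5G62240, AT4G14805, AT4G33870, AT5G01120 and some small members were named after their values were seen. From each list up to 3 called genes in each direction were named by adjusted p.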

Additional observations from a re-analysis of the deposited data

Results flagged for a closer look

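For 3 members the change with bte1 differed between the hid1 and the WT background in edgeR's test of that difference, on all 24 libraries and adjusted over all genes, where 0.119% of all genes were called lower and 0.224% higher. WT enters this difference, and the rule held WT low in the members, so the p-values are a description. AT2G18193 had a difference of -1.34 on the log2 scale (SE 0.22, adjusted p = 0.00573), with 4.74 CPM on average in bte1hid1, against 12.1 in hid1, and 4.48 in bte1, against 4.57 in WT. RPA1E had a difference of -1.06 (SE 0.22, adjusted p = 0.0290), with 2.69 CPM in bte1hid1, against 5.37 in hid1, and 2.74 in bte1, against 2.64 in WT. GPT2 had a difference of -3.08 (SE 0.62, adjusted p = 0.0245), with 0.627 CPM in bte1hid1, against 2.45 in hid1, and 1.06 in bte1, against 0.484 in WT.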

How the results depend on the processing

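With a ratio of 4 in place of 8 the rule gave 299 genes, and with 16 it gave 31. Other settings gave 68 to 108, and leaving out 1 library of e2f, bte1btl1, btl1 or WT gave 80 to 102. Members called in hid1 against WT numbered 8 as reported, 7 when only those 2 genotypes were fitted and 6 to 9 without 1 library. In bte1 against WT the single call became 2 when only 2 genotypes were fitted and 3 with DESeq2, in both mostly lower calls, and 0 to 1 without 1 library. In bte1hid1 against hid1 the 11 became 7 when only 2 genotypes were fitted (50 members tested), 17 with DESeq2 and 6 to 12 without 1 library. In hid1phil1 against hid1 the 9 became 6 to 9 without 1 library. Of 903 values of single genes under all settings none reversed, 78 lost their call and 3 gained one. Replicate numbers do not pair the samples (correlations of deviations from -0.08 to 0.15). With a replicate block 9 members were called in hid1 against WT, 8 of them among those reported. In bte1 against WT the block called 1 member, lower, and lost the reported one. In bte1hid1 against hid1 it called 11, of which 10 were among the 11 reported (Kin-1 was lost), and in hid1phil1 against hid1 10, including the 9 reported. Listed genes called in e2f against WT numbered 107 with the block and 106 as reported, and Listed genes called in e2f against btl1 numbered 99 in both. Members of a few reads per library are limited by depth, and their ratios are known only within wide counting intervals.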
